A study of Mus musculus with 13 samples.

Results

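T-cell and thymocyte genes were followed across 13 mouse aortas: Cd3e, Cd4, Cd8a, Cd8b1, Tcf7, Themis, Rag1, Rag2, Dntt and Ptcra, 10 of the 54532 genes counted. They were chosen by name, with earlier values of the same aortas known, because Tcf7 had been high in 2 of them, Ad-sham4 and Ad-FAM3A6. The levels of the 10 genes in those 2 aortas are therefore given as a description and support no claim of their own. Reads were counted by gene in bulk RNA, so fewer cells of a type and less RNA per cell cannot be told apart.

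The study asked how the secreted protein FAM3A bears on the differentiation of vascular smooth muscle cells in abdominal aortic aneurysm, with aortic RNA among its readouts. All mice were ApoE knockout (ApoE-/-) and carried a subcutaneous pump releasing angiotensin II (AngII) at 1000 ng per kg per min for up to 28 days, implanted at 10 weeks of age. The 6 Ad-sham mice received an empty adenovirus vector and the 7 Ad-FAM3A mice a vector carrying mouse Fam3a, in 5 tail vein injections each. The Fam3a insert carried a FLAG tag and was followed by an mCherry reporter. Male and female mice were used in the study and the sex of each aorta was not given. The methods name the construct with an EF1A promoter and also a CMV destination vector, so which promoter drove the insert is not settled by them. Each library came from bulk aorta. No label states which pieces of the aorta or of neighbouring tissue a library held. The p-values given here measure the spread between these aortas.

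The genes follow the life of a T cell. Early thymocytes cut and rejoin the gene segments of the T-cell receptor with the RAG1 and RAG2 recombinase, while terminal transferase, encoded by Dntt, adds bases at the joints, and the pre-T-cell receptor alpha chain, encoded by Ptcra, pairs with the first rearranged chain. Thymocytes that carry CD4 and CD8 together depend on the transcription factor TCF1, encoded by Tcf7, and on THEMIS, a signalling adaptor of the receptor, and CD3 epsilon is kept on the receptor of mature T cells after Rag1, Rag2 and Dntt have been shut off. Immature B cells of the bone marrow use the recombinase and terminal transferase as well, and in mice some dendritic cells carry CD4 or CD8 alpha.

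The sequences upstream of 4 genes are shown because the pattern described here is a separation of Rag1, Rag2 and Dntt from Cd3e. RefSeq (GRCm38.p6) gave promoter sequences for 8 of the 10 genes. The 250 bases before the RefSeq start site, which for Rag1, Rag2 and Cd3e differs from that of the gene in the count file, lie at chr2:101649533-101649782 on the minus strand for Rag1, at chr2:101624462-101624711 on the plus strand for Rag2, at chr19:41029025-41029274 on the plus strand for Dntt and at chr9:45009612-45009861 on the minus strand for Cd3e. Each is written 5′ to 3′ on the strand of its gene. Capitals mark matches, on either strand, to 4 motifs: the E-box CANNTG, the RUNX motif TGTGGT, the TCF/LEF motif CTTTGA and the GATA motif AGATAA.

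Rag1: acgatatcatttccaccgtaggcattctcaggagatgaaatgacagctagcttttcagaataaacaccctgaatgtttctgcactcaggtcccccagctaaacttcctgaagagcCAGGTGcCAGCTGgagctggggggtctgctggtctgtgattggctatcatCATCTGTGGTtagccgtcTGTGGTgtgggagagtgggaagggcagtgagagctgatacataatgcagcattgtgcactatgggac
Rag2: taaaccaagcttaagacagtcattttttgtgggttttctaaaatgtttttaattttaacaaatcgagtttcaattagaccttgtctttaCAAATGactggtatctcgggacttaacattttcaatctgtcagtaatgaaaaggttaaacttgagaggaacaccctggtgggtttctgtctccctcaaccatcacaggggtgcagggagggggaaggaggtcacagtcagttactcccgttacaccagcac
Dntt: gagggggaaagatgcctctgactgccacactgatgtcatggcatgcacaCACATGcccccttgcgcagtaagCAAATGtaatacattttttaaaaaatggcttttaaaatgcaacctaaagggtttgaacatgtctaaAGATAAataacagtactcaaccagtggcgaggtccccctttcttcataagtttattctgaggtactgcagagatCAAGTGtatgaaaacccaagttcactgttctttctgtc
Cd3e: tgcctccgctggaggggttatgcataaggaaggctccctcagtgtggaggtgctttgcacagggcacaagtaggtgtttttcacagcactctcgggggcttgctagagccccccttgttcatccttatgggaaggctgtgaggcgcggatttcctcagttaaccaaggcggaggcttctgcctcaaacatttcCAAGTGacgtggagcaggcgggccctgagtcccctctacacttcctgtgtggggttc

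In Rag1 an E-box match and a RUNX match overlap. An E-box was present in at least 1 window of all 8 genes with a sequence, and in 66.2% of 32851 mouse promoter windows of the same length. The RUNX motif was found only in Rag1 among the 8, with 2 matches, and in 4614 of the 32851 windows. The GATA motif was found only in Dntt, and in 9.99% of all windows. No TCF/LEF match was present in the 8 genes, against 13.8% of all windows. A match describes the letters and is no evidence of binding.

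The libraries held 15588507 to 19797407 counts in Ad-sham and 14481179 to 16576977 in Ad-FAM3A, and 3 counts, taken as the detection floor, corresponded to 0.136 to 0.225 CPM (counts scaled to a common library total adjusted by TMM). Intervals and floors given here cover counting error only. Fam3a had a median of 24.7 CPM in Ad-sham (17.7 to 29.9) and 23.4 CPM in Ad-FAM3A (18.5 to 29.7), a log2 fold change of -0.03 ± 0.16 (SE; edgeR adjusted p = 0.971), so counts assigned to the Fam3a gene were not detectably higher in the libraries labelled Ad-FAM3A. Whether transcripts of the tagged vector insert were counted under Fam3a could not be settled from the count table. Smooth muscle genes (6 genes summed) ranged from 2213 CPM, in Ad-FAM3A6, to 18110 CPM. In Ad-FAM3A6, pancreatic enzymes were also counted that were near 0 elsewhere, such as Pnlip, pancreatic lipase, with 4709 counts there and at most 12 in another aorta, and B-cell genes summed to 7920 CPM there and 2644 CPM in Ad-FAM3A7, but to 51.3 to 153 CPM in the other 5 Ad-FAM3A aortas and 79.0 to 252 CPM in Ad-sham.

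**Figure D1:**
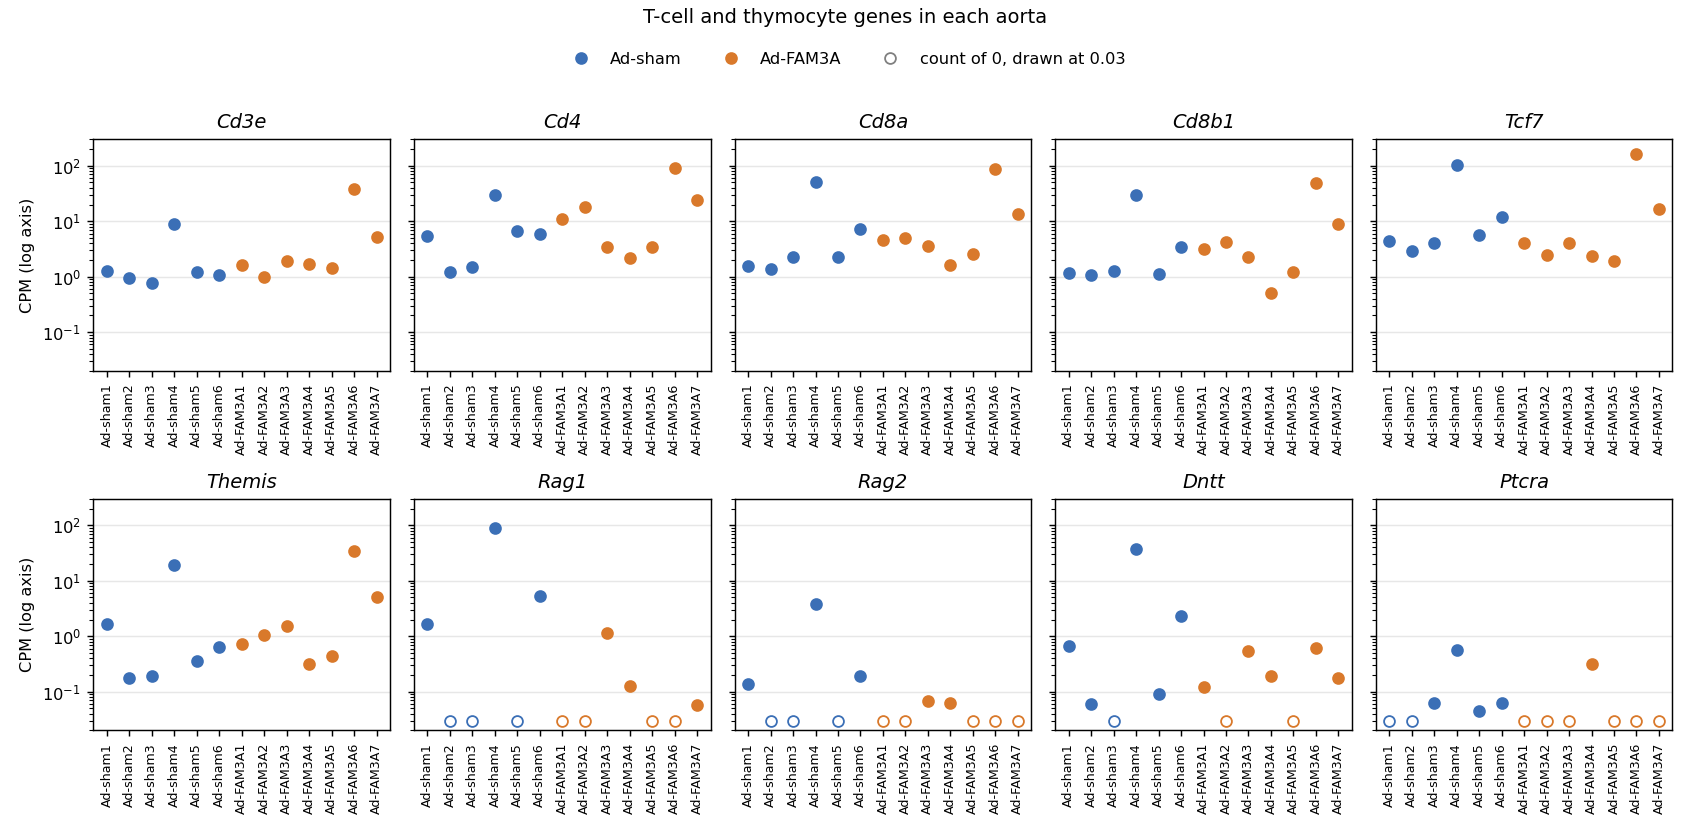
CPM (log axis) of the 10 genes in each of the 13 aortas, coloured by group, with open points for counts of 0. The first 6 genes are highest in Ad-FAM3A6 and second in Ad-sham4, while Rag1 is at 90.2 CPM in Ad-sham4 and at 0 in Ad-FAM3A6.

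The receptor gene Cd3e (ENSMUSG00000032093, GRCm38 chr9:44998740-45009627) was highest in Ad-FAM3A6 and second in Ad-sham4. In Ad-sham it ranged from 0.764 to 9.03 CPM with a median of 1.15 CPM, and in Ad-FAM3A from 0.983 to 38.7 CPM with a median of 1.66 CPM. The top value of each group came from 1 aorta, with 143 counts in Ad-sham4 and 619 in Ad-FAM3A6, and all Ad-FAM3A aortas but Ad-FAM3A6 lay within the range of Ad-sham. Ad-FAM3A7 came next with 5.14 CPM, and the remaining 10 aortas lay between 0.764 and 1.89 CPM. Ad-sham4 stood 7.004-fold, and Ad-FAM3A6 30.01-fold, above the median of the other 11 aortas.

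The coreceptor genes Cd8a (ENSMUSG00000053977, chr6:71373427-71379173) and Cd8b1 (ENSMUSG00000053044, chr6:71322788-71337494), whose products pair on the surface of cytotoxic T cells and thymocytes, kept the order of Cd3e but with a smaller gap between the 2 aortas. Cd8a ranged from 1.38 to 50.8 CPM in Ad-sham (median 2.23) and from 1.59 to 85.8 CPM in Ad-FAM3A (median 4.53). Cd8b1 ranged from 1.08 to 29.4 CPM in Ad-sham (median 1.21) and from 0.510 to 48.6 CPM in Ad-FAM3A (median 3.22). The highest values were again those of Ad-FAM3A6 and Ad-sham4, and the groups overlapped. The proportion of the chains was alike in both aortas, with 57.8 Cd8b1 counts per 100 Cd8a counts in Ad-sham4 (95% interval 51.4 to 64.8, exact Clopper-Pearson) and 56.7 in Ad-FAM3A6 (51.8 to 61.9).

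Cd4 (ENSMUSG00000023274, chr6:124864692-124888221), the coreceptor of helper T cells, was less concentrated in Ad-sham4 and Ad-FAM3A6. These aortas gave 56.6% and 58.7% of the Cd4 counts of their groups, against 76.7% and 73.2% for Cd8a. Cd4 ranged from 1.20 to 29.6 CPM in Ad-sham (median 5.57) and from 2.17 to 90.3 CPM in Ad-FAM3A (median 11.1). Ad-FAM3A6 was highest, followed by Ad-sham4 and by Ad-FAM3A7 with 23.7 CPM, and the groups overlapped. Ad-FAM3A2 followed with 290 counts although it had only 16 counts of Cd3e, or 1812 Cd4 counts per 100 Cd3e counts (95% interval 1097 to 3214), against 233 (212 to 257) in Ad-FAM3A6. In Ad-FAM3A2 the summed macrophage genes were highest of all aortas, at 1155 CPM, and Itgax, a dendritic cell and macrophage integrin, had 857 counts, a gene chosen after its values were seen. The part of such cells in the Cd4 value was not tested. Per 100 Cd8a counts there were 58.3 Cd4 counts in Ad-sham4 (51.9 to 65.4) and 105 in Ad-FAM3A6 (97.7 to 113).

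Tcf7 (ENSMUSG00000000782, chr11:52252371-52283014) had the most counts of the 10 genes in both aortas. In Ad-sham it ranged from 2.93 to 101 CPM with a median of 5.01 CPM, and in Ad-FAM3A from 1.95 to 162 CPM with a median of 3.99 CPM. The nearest aortas were Ad-FAM3A7 with 16.6 CPM and Ad-sham6 with 12.1 CPM, the rest lay under 6, and the groups overlapped. The values that led to the choice of genes, 1601 counts in Ad-sham4 and 2595 in Ad-FAM3A6, were 6.10-fold and 9.79-fold the value of Ad-FAM3A7. Beside Cd3e, Tcf7 was higher in Ad-sham4, where there were 1120 Tcf7 counts per 100 Cd3e counts (95% interval 943 to 1338), than in Ad-FAM3A6, where there were 419 (384 to 458). Ad-sham6 had 1124 (684 to 1969), near Ad-sham4, and Ad-FAM3A7 had 323 (253 to 414).

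**Figure D2:**
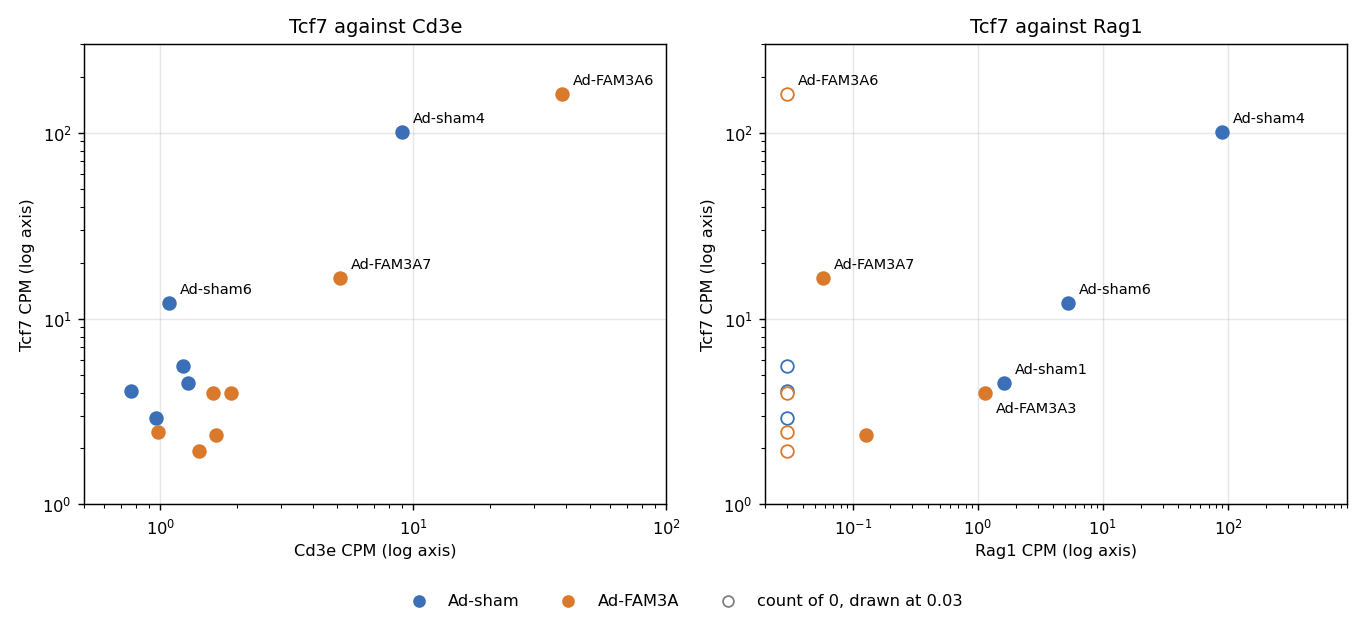
Tcf7 CPM against Cd3e CPM (left) and against Rag1 CPM (right) in the 13 aortas, all axes logarithmic, with open points for a Rag1 count of 0. Tcf7 at 162 CPM goes with Cd3e at 38.7 CPM and a Rag1 count of 0 in Ad-FAM3A6, and Tcf7 at 101 CPM with Cd3e at 9.03 CPM and Rag1 at 90.2 CPM in Ad-sham4.

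Themis (ENSMUSG00000049109, chr10:28668360-28883818), which tunes receptor signalling in thymocytes and remains present in mature T cells, was nearly absent from most aortas. It ranged from 0.180 to 19.1 CPM in Ad-sham (median 0.499) and from 0.319 to 33.9 CPM in Ad-FAM3A (median 1.04). The 303 counts of Ad-sham4 and the 542 of Ad-FAM3A6 stood far above the 87 of Ad-FAM3A7 and the 24 of Ad-sham1, and the groups overlapped. Per 100 Cd3e counts there were 212 Themis counts in Ad-sham4 (95% interval 173 to 260) and 87.6 in Ad-FAM3A6 (77.9 to 98.4).

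Rag1 (ENSMUSG00000061311, chr2:101638282-101649501) separated the 2 aortas. It had 1428 counts, or 90.2 CPM, in Ad-sham4 and 0 counts in Ad-FAM3A6, where the floor of 3 counts is 0.188 CPM, so it was at least 481-fold higher in Ad-sham4. Among the other Ad-sham aortas Rag1 had 83 counts in Ad-sham6, 24 in Ad-sham1 and 0 in the remaining 3, and the median of the group was 0.814 CPM. Among the other Ad-FAM3A aortas it had 17 counts in Ad-FAM3A3, 2 in Ad-FAM3A4, 1 in Ad-FAM3A7 and 0 in the rest, with a group median of 0. Ad-sham4 alone gave 93.03% of the Rag1 counts of Ad-sham, and apart from it the groups overlapped.

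Rag2 (ENSMUSG00000032864, chr2:101624718-101632529), the partner of Rag1 in the recombinase, lies next to it on chromosome 2 and had the same order of aortas at a lower level. It had 61 counts in Ad-sham4, 3 in Ad-sham6, 2 in Ad-sham1 and 1 each in Ad-FAM3A3 and Ad-FAM3A4, and 0 in the other 8 aortas, Ad-FAM3A6 included. The median was 0.0679 CPM in Ad-sham and 0 in Ad-FAM3A, and the ratio of Ad-sham4 to the floor of Ad-FAM3A6 was at least 20.5-fold. The noncoding gene B230118H07Rik, which spans both Rag genes, had 192 to 586 counts in every aorta, 321 of them in Ad-sham4, and did not follow Rag1. Counting by strand was not stated for these files, so counts of overlapping genes may have been shared or dropped.

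Dntt (ENSMUSG00000025014, chr19:41029275-41059523) followed Rag1 rather than Cd3e. It had 587 counts in Ad-sham4, or 37.1 CPM, then 37 in Ad-sham6 and 10 in Ad-sham1, and the Ad-sham median was 0.385 CPM. In Ad-FAM3A it ranged from 0 to 0.6251 CPM with a median of 0.173 CPM, the top value being 10 counts in Ad-FAM3A6. All but Ad-sham4 and Ad-sham6 lay within 0 to 0.679 CPM in both groups. At least 25 counts of Rag1 and Dntt together, a cutoff not planned in advance, were present in 4 aortas. Their shares were close, though the intervals of Ad-sham1 and Ad-FAM3A3 were wide. Rag1 made up 70.9% of the summed Rag1 and Dntt counts in Ad-sham4 (95% interval 68.8 to 72.9, exact Clopper-Pearson), 69.2% in Ad-sham6 (60.1 to 77.3), 70.6% in Ad-sham1 (52.5 to 84.9) and 68.0% in Ad-FAM3A3 (46.5 to 85.1). With fewer counts it was 2 of 5 in Ad-FAM3A4, or 40.0% (5.27 to 85.3), 1 of 4 in Ad-FAM3A7, or 25.0% (0.631 to 80.6), and 0 of 10 in Ad-FAM3A6 (0 to 30.9%).

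Ptcra (ENSMUSG00000036858, chr17:46755663-46763712) was the least abundant gene, with 9 counts in Ad-sham4 and 5 in Ad-FAM3A4. It had 1 count in each of Ad-sham3, Ad-sham5 and Ad-sham6 and 0 in the other 8 aortas, Ad-FAM3A6 included, with a median of 0.0544 CPM in Ad-sham and 0 in Ad-FAM3A. Per 100 Cd3e counts it had 19.2 in Ad-FAM3A4 (5.77 to 50.9), 6.29 in Ad-sham4 (2.82 to 12.3) and 0 in Ad-FAM3A6 (0 to 0.598). Rag1, Rag2, Dntt and Ptcra together made up 35.5% of all counts of the 10 genes in Ad-sham4, 20.7% in Ad-sham6, 13.6% in Ad-sham1, 9.52% in Ad-FAM3A3 and 0.136% in Ad-FAM3A6.

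Dividing CPM by the gene length in the file gave a rough comparison of levels between genes. That length, 4080 bases for Cd3e and 11682 for Themis, need not be that of the transcript present. In Ad-sham4 Tcf7 stood at 38.5 CPM per kb, followed by Cd8b1 at 19.8, Dntt at 17.4, Cd8a at 13.98 and Rag1 at 13.7 CPM per kb. Cd4 was at 7.35, Cd3e at 2.21, Themis at 1.64, Rag2 at 1.13 and Ptcra at 0.443 CPM per kb. Dntt and Rag1 thus stood above Cd3e in CPM per kb in Ad-sham4, and Rag2 below it. In Ad-FAM3A6 Tcf7 stood at 61.8 CPM per kb, Cd8b1 at 32.8, Cd8a at 23.6, Cd4 at 22.4, Cd3e at 9.48, Themis at 2.90 and Dntt at 0.294 CPM per kb.

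**Figure D3:**
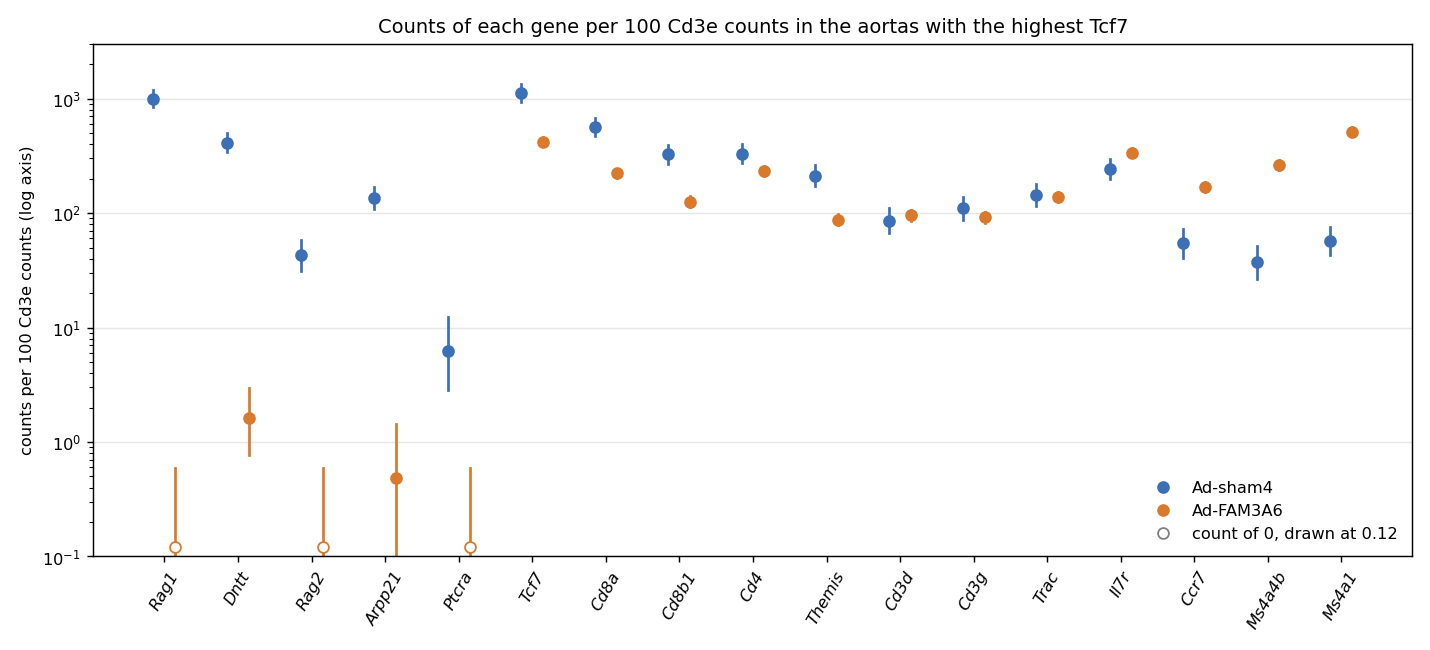
Counts of 17 genes per 100 Cd3e counts (log axis) in Ad-sham4 and Ad-FAM3A6, with bars for the 95% interval of counting error and open points for counts of 0. Rag1 is at 999 in Ad-sham4 and 0 in Ad-FAM3A6, Cd3d, Cd3g and Trac lie close together in both, and Ccr7, Ms4a4b and Ms4a1 lie higher in Ad-FAM3A6.

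Set against Cd3e, the receptor genes and the genes of recirculating cells were each mixed between the 2 aortas. Of the 22 further genes of the receptor complex and its signalling, 12 had 95% intervals that overlapped between Ad-sham4 and Ad-FAM3A6, 8 were higher in Ad-sham4 and 2 in Ad-FAM3A6. Of the 7 genes of naive and recirculating T cells, 4 were higher in Ad-FAM3A6, 2 in Ad-sham4 and 1 overlapped. Cd3e itself stood at 9.03 CPM in Ad-sham4 and 38.7 CPM in Ad-FAM3A6, so a gene at equal CPM comes out higher in Ad-sham4. Thy1, at 94.6 and 90.4 CPM, had 1048 and 234 counts per 100 Cd3e counts. The share over all genes was not computed, so these numbers of genes are a description. The genes named next were chosen after their values were seen. Per 100 Cd3e counts, Cd3d had 86.0 counts in Ad-sham4 (95% interval 67.0 to 110) and 95.6 in Ad-FAM3A6 (85.3 to 107), and Trac, the constant region of the alpha chain, had 144 (116 to 180) and 138 (125 to 154). The beta chain constant regions did not follow these, with 303.5 Trbc1 counts in Ad-sham4 (251 to 369) and 114 in Ad-FAM3A6 (102 to 127), and with 367 (305 to 445) and 144 (130 to 159) for Trbc2. Cd247, the zeta chain, had 120 (95.2 to 150) and 78.0 (69.1 to 88.0). Ccr7, the lymph node homing receptor, had 54.6 in Ad-sham4 (40.9 to 72.4) and 168 in Ad-FAM3A6 (152 to 186), and B cells carry it as well. S1pr1 and Klf2, which endothelial cells also express, went the other way, with 2089 and 2308 counts in Ad-sham4 and 571 and 336.5 in Ad-FAM3A6. Ms4a4b, a membrane protein of mature T cells, had 37.1 (26.5 to 51.1) and 264 (240 to 290). Its level in Ad-sham4, 3.35 CPM, lay at the median of the other 11 aortas, 3.39 CPM, while that in Ad-FAM3A6 was 102 CPM. Cd2, an adhesion receptor of T cells, had a similar pattern, with 32 counts in Ad-sham4, 15 to 110 in the other 11 aortas and 469 in Ad-FAM3A6.

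Of the 22 further genes of the T-cell receptor complex and its signalling, 17 were higher in Ad-sham4 than in each of the other 11 aortas, and 21 in Ad-FAM3A6. Among all genes with at least 50 counts in the aorta, 5.87% were so in Ad-sham4 and 20.5% in Ad-FAM3A6. The kinase Lck, which starts receptor signalling, had 46.5 CPM in Ad-sham4, 96.5 CPM in Ad-FAM3A6 and 1.28 to 13.9 CPM elsewhere. Trbc2, a constant region of the beta chain, had 33.2 and 55.6 CPM in these aortas and 1.02 to 7.28 CPM elsewhere. Thy1, which fibroblasts and neurons also carry, did not stand apart, with 94.6 and 90.4 CPM against 31.1 to 150 CPM. Lcp2, an adaptor also of myeloid cells, had 24.6 CPM in Ad-sham4, within the 4.34 to 29.7 CPM of the other 11, and 65.0 CPM in Ad-FAM3A6.

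Among 12 further transcription factors of the T lineage, 5 stood above the other 11 aortas in Ad-sham4 and 9 in Ad-FAM3A6. Lef1, the relative of Tcf7, had 8.68 counts per 100 Tcf7 counts in Ad-sham4 (95% interval 7.25 to 10.3) and 27.5 in Ad-FAM3A6 (25.3 to 29.9). Ets1, also an endothelial factor, was at 119 CPM in Ad-sham4, inside the 45.5 to 126 CPM of the others, and at 316 CPM in Ad-FAM3A6. Tcf12 and Zbtb7b, expressed in many tissues, stood inside the range of the other 11 in both aortas.

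Of 7 further thymocyte genes, 4 stood above the other 11 aortas in Ad-sham4 and 3 in Ad-FAM3A6. Arpp21, a phosphoprotein gene of brain and of immature thymocytes, had 195 counts in Ad-sham4 and at most 5 in any other aorta. Ad-sham6, with its 83 Rag1 counts, had 0 of Arpp21, which allows up to 4.55 per 100 Rag1 counts, against 13.7 (11.7 to 15.9) in Ad-sham4. Ccr9, the homing receptor of thymocytes and gut T cells, had 226 counts in Ad-sham4 and 185 in Ad-FAM3A6, which per 100 Cd3e counts were 158 (95% interval 128 to 196) and 29.9 (25.2 to 35.3). Cd1d1, which thymocytes use to select NKT cells and which many other cells carry, lay inside the range of the other 11 in both aortas. Aqp11, a water channel, had 10.8 CPM in Ad-sham4, 2.88 CPM in Ad-FAM3A6 and 2.30 to 7.74 CPM elsewhere.

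**Figure D4:**
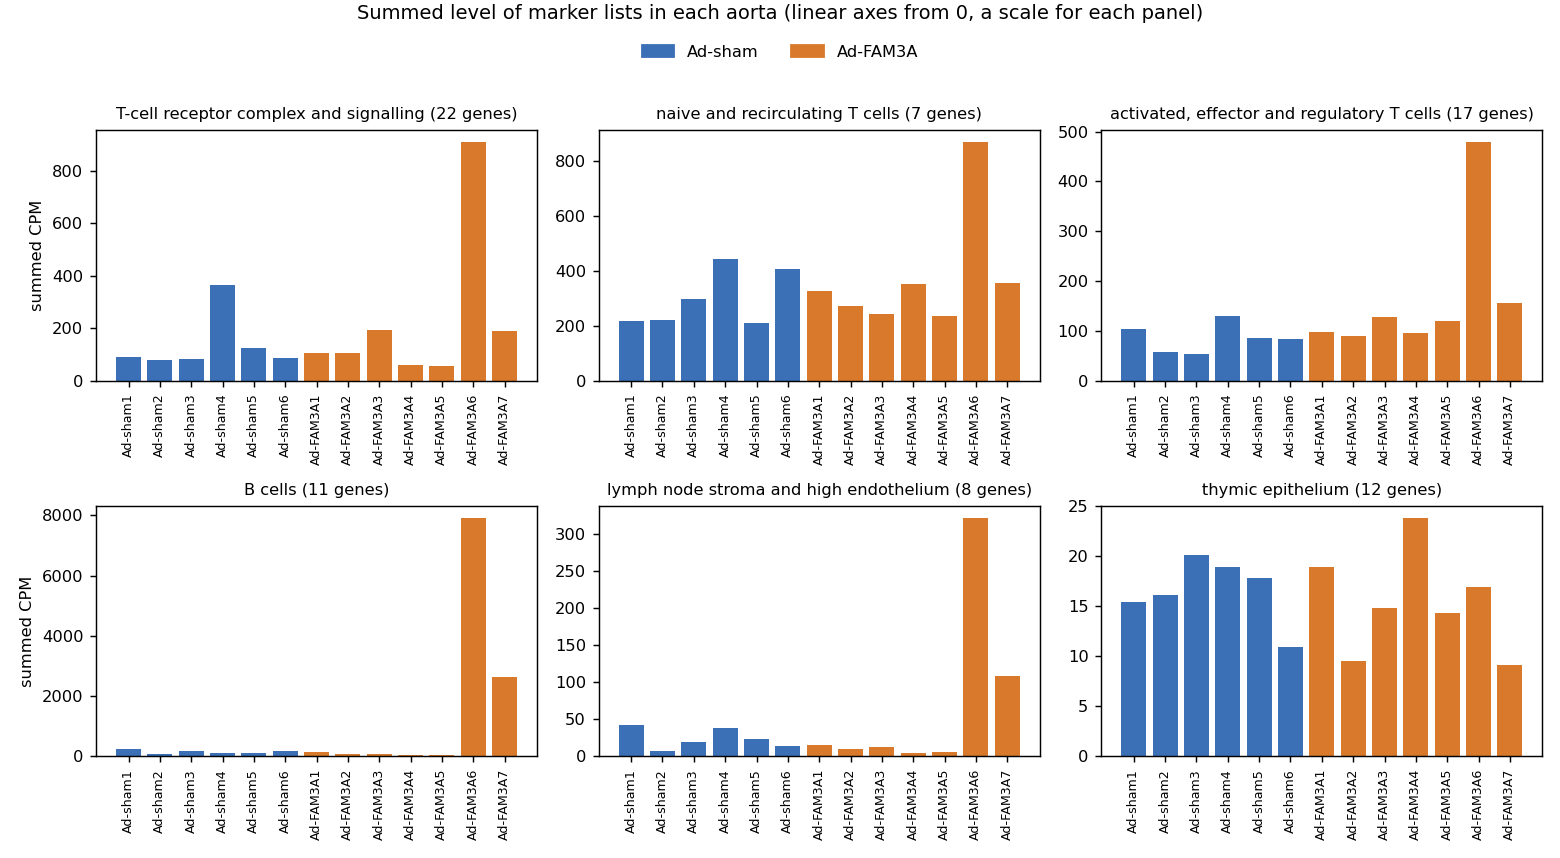
Summed CPM of 6 marker lists in each aorta, on linear axes that start at 0 and differ between panels. The receptor list is at 363 CPM in Ad-sham4 and 911 CPM in Ad-FAM3A6, the B-cell and lymph node lists stand highest in Ad-FAM3A6, followed by Ad-FAM3A7, and the thymic epithelium list lies between 9.18 and 23.8 CPM in all.

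Thymic epithelium, the stroma of the thymus, was read from 12 genes. Foxn1, the transcription factor that defines it, had 0 counts in all 13 aortas. Psmb11, the proteasome subunit of cortical thymic epithelium, had 0 counts in both Ad-sham4 and Ad-FAM3A6 and 2 counts in Ad-FAM3A3, and Krt14 had 0 in both. The list summed to 18.9 CPM in Ad-sham4, to 16.9 CPM in Ad-FAM3A6, and to 9.18 to 23.8 CPM in the other 11. Pax1, Ccl25, Krt8 and Trp63 were its genes with the highest mean CPM, and none of these is confined to thymus. Of the 12 genes, 3 stood above the other 11 aortas in Ad-sham4 and 4 in Ad-FAM3A6. Of the low genes, singled out after their values were seen, Prss16, a thymic protease, had 13 counts in Ad-sham4 and 26 in Ad-FAM3A6 against at most 7 elsewhere. Krt5 had 4 and 0 against at most 1, Tbata had 5 and 3 against at most 2, and Aire had 1 and 7 against at most 4. Epcam, a general epithelial gene, had 9 counts in Ad-sham4 and 101 in Ad-FAM3A6 against at most 15 elsewhere. A count of 0 for Foxn1 in Ad-sham4 allows up to 0.189 CPM.

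Lists of mature lymphocytes and of lymph node tissue stood above the other aortas in Ad-FAM3A6, and mostly did not in Ad-sham4. None of 17 genes of activated, effector and regulatory T cells stood above the other 11 aortas in Ad-sham4, and all 17 did in Ad-FAM3A6, among them Il2rb at 115 CPM against 2.40 to 20.2 CPM. For B cells the counts were 0 and 11 of 11 genes, with summed levels of 110 CPM in Ad-sham4, within the 79.0 to 252 CPM of its group, and 7920 CPM in Ad-FAM3A6. For lymph node stroma and high endothelium they were 0 and 7 of 8, with 38.8 and 321 CPM. Cxcl13 gave 36.4 CPM of this sum in Ad-sham4 and 158 CPM in Ad-FAM3A6. Cxcr5, a receptor of B cells that this list also held, gave 47.3 CPM in Ad-FAM3A6. Glycam1, a mucin of high endothelial venules, had 1152 counts in Ad-FAM3A6, 211 in Ad-FAM3A7 and 3 in Ad-sham4. Of 7 genes of naive and recirculating T cells, 3 stood above the other 11 in Ad-sham4 and 6 in Ad-FAM3A6, with summed levels of 444 and 871 CPM against 208 to 406 CPM. Summed plasma cell genes were at 289 and 2067 CPM, and NK cell genes at 5.49 and 37.4 CPM. Macrophage genes were at 995.2 and 573 CPM and dendritic cell genes at 91.5 and 113 CPM. Endothelial genes were at 1741 and 932 CPM, adipocyte genes at 3187 and 2987 CPM and heart muscle genes at 64.2 and 208 CPM. The part of these tissues in the levels of the 10 genes was not tested.

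Cell division genes stood high in both aortas. The 10 genes summed to 206 CPM in Ad-sham4 and 573 CPM in Ad-FAM3A6, against 64.8 to 164 CPM in the other 11, and 7 and 10 of them stood above those 11. The end joining genes that complete V(D)J recombination, which every cell uses, summed to 117 and 140 CPM against 88.7 to 126 CPM. The 5 sympathetic ganglion genes were lowest in Ad-sham4, at 3.60 CPM, and stood at 232 CPM in Ad-FAM3A6 and 8.499 to 774 CPM in the other 11.

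Segments of the T-cell receptor genes were counted beside the constant regions. Of 35 Trbv segments, 18 had a count in Ad-sham4 with 177 counts in all, 21 in Ad-FAM3A6 with 570 counts, and 2 to 16 in the other aortas. The top segment made up 15.8% of the Trbv counts in Ad-sham4 and 12.1% in Ad-FAM3A6. Of 128 Trav segments, 17 had a count in Ad-sham4 with 41 counts in all, and 61 had one in Ad-FAM3A6 with 249 counts in all. The top Trav segment held 13 of the 41 counts in Ad-sham4, or 31.7%, and 7.23% of the counts in Ad-FAM3A6. Segments are close copies of each other, so the division of reads among them is uncertain. Trdc, the constant region of the delta chain, had 81 counts in Ad-sham4, 96 in Ad-FAM3A6, 67 in Ad-FAM3A7 and 2 to 14 elsewhere.

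Likeness between the genes across the 13 aortas was taken as Pearson's r of log2 CPM and given as a description, since the points share library and depth and are drawn out by the 2 aortas above. Cd8a and Cd8b1 had r = 0.98, Cd3e and Themis 0.93 and Tcf7 and Cd8a 0.94. Rag1 had r = 0.94 with Rag2 and with Dntt, but 0.46 with Tcf7 and 0.20 with Cd3e. Dntt lay between, with r = 0.70 with Tcf7, 0.63 with Themis, 0.61 with Cd8a and 0.48 with Cd3e. Among 19879 genes with at least 30 counts in all, those most like Tcf7 included Trbv2 (r = 0.972), Myb, Bcl11b, Ccr9, Trbc1, Lef1 and Lck. Those most like Rag1 were Dntt (0.945), Rag2, Tdrd5, BC028471, Card14, Siae, Dgkeos and Gm8242 (0.786), and those most like Cd3e were Trbv26 (0.957), Birc3, Trbv14, Ikbkb, Gm37266, 5830418P13Rik, Vmn2r96 and Gm36948 (0.936).

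Genes that were high in 1 aorta, with at least 50 counts and over 5 times the CPM of every other aorta, were counted for each aorta. In Ad-sham4 there were 10 such genes, which by size of the ratio were Arpp21, Rag2, Rag1, Dntt, Dgkeos, Tdrd5, Spo11, Bpifa1, C1rb and Gm14267. Rag1, with 90.2 CPM against at most 5.26 CPM, was 17.1-fold above the next aorta, and Dntt 15.8-fold. In Ad-FAM3A6 there were 175 such genes, 74 of them immunoglobulin genes and none of the 10 followed here, and the top of the list held the pancreatic enzymes Cpa1, Try5, Prss2, Cela2a, Pnlip, Rnase1, Try4, Ctrb1 and Cela3b. The other 11 aortas had 0 to 20 such genes. For Ad-FAM3A6 the rule counts Ad-sham4 among the other aortas, which ranked second for Cd3e, Cd4, Cd8a, Cd8b1, Tcf7 and Themis. Over the highest of the remaining 11, these genes stood 3.81-fold (Cd4) to 9.79-fold (Tcf7) in Ad-FAM3A6.

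Between the groups, 0 of the 6 genes that passed the filter on low counts were called at an adjusted p under 0.05 (edgeR quasi-likelihood test, Benjamini-Hochberg), where the background was 0% of 15811 genes, and 0 had an unadjusted p under 0.05, where the background was 5.91%. The smallest adjusted p of any gene was 0.810 by edgeR, whereas DESeq2 called 10 genes, none of them followed here. Counts assigned to Fam3a did not separate these groups either, with the limit on vector transcripts given above. Cd3e had a mean of 2.39 ± 3.26 CPM in Ad-sham (SD, n = 6) and 7.34 ± 13.9 CPM in Ad-FAM3A (SD, n = 7). Its log2 fold change, Ad-FAM3A over Ad-sham, was 1.58 ± 0.97 (SE; edgeR adjusted p = 0.812; two-sided exact permutation p = 0.358), with 6 of 7 Ad-FAM3A aortas above the Ad-sham median. Cd4 had a log2 fold change of 1.35 ± 0.91 (edgeR adjusted p = 0.816; exact permutation p = 0.297). For Cd8a it was 0.57 ± 1.08, for Cd8b1 0.63 ± 1.08 and for Themis 0.70 ± 1.28, with edgeR adjusted p of 0.913, 0.906 and 0.910. The spread within each group was as large as or larger than its mean for these genes.

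**Figure D5:**
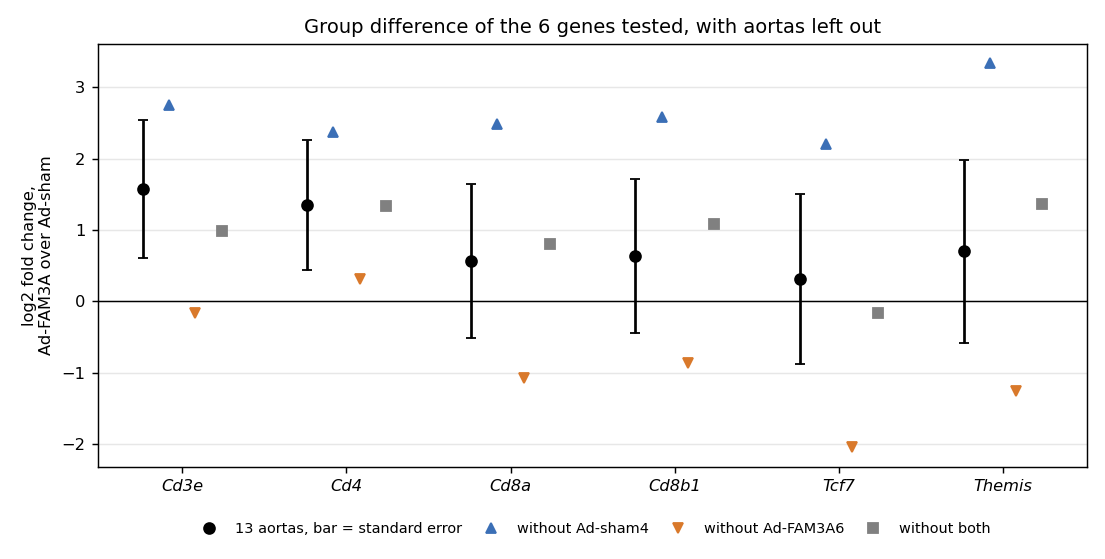
Log2 fold change, Ad-FAM3A over Ad-sham, of the 6 genes tested by edgeR, with standard errors for all 13 aortas and values without Ad-sham4, without Ad-FAM3A6 and without both. Tcf7 moves from 0.31 to 2.21 without Ad-sham4 and to -2.05 without Ad-FAM3A6.

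Tcf7 showed how far 1 aorta could set a group value. Its mean was 21.7 ± 39.0 CPM in Ad-sham and 27.6 ± 59.6 CPM in Ad-FAM3A, the edgeR log2 fold change was 0.31 ± 1.19 (edgeR adjusted p = 0.959), and the difference of mean log2 CPM had the opposite sign, -0.37 (two-sided exact permutation p = 0.715). Only 2 of 7 Ad-FAM3A aortas lay above the Ad-sham median. Without Ad-sham4 the edgeR value was 2.21, without Ad-FAM3A6 it was -2.05 and without both it was -0.16. Without Ad-sham4, all 6 genes had positive values, from 2.21 for Tcf7 to 3.34 for Themis, and 5 of the 6, all but Tcf7, had an unadjusted p under 0.05 while the edgeR adjusted p was 0.636. Ad-sham4 was among the aortas behind the choice of genes, so this count supports no claim. The range of all genes at that level with 1 aorta left out is given at the end. Without Ad-FAM3A6, Cd3e was at -0.17, Cd8a at -1.08, Cd8b1 at -0.86 and Themis at -1.26, while Cd4 stayed positive at 0.31. Without both, Cd3e was at 0.99, with an edgeR adjusted p of 0.663.

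Rag1, Rag2, Dntt and Ptcra did not pass the filter and were compared by mean log2 CPM. The difference, Ad-FAM3A less Ad-sham, was -2.43 for Rag1 (two-sided exact permutation p = 0.147), -1.06 for Rag2 (exact permutation p = 0.103), -1.54 for Dntt (exact permutation p = 0.263) and -0.43 for Ptcra (exact permutation p = 0.445). Without Ad-sham4 these were -1.17, -0.32, -0.47 and -0.08. The authors' mean FPKM per group placed Rag1 at 2.42 in Ad-sham and 0.0291 in Ad-FAM3A and Dntt at 3.11 and 0.111, group values to which Ad-sham4 gave 93.03% and 92.2% of the Ad-sham counts. For Tcf7 the authors' mean was 8.19 FPKM without the Fam3a vector and 10.6 FPKM with it.

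In the wider lists no gene was called either at the adjusted threshold by edgeR. The 19 tested genes of the T-cell receptor list had a median log2 fold change of 1.23, with 1 of them at an unadjusted p under 0.05, the 7 of naive and recirculating T cells 1.81 with 3, and the 10 tested of activated, effector and regulatory T cells 1.21 with 2. The 6 tested further thymocyte genes had a median of -0.62 with 2, and the 12 transcription factors 0.22 with 0. All genes tested had a median of 0 with 5.91% at that threshold, and the 6 genes followed here a median of 0.66 with 0. All 11 B-cell genes had an unadjusted p under 0.05, with a median log2 fold change of 2.30, and their summed level in the Ad-FAM3A aortas other than Ad-FAM3A6 and Ad-FAM3A7 was 51.3 to 153 CPM, against 79.0 to 252 CPM in Ad-sham.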

How the data were processed

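RNA-seq was performed on 13 aortas. The authors aligned the filtered reads to GRCm38 with Hisat2 and the deposited values are raw counts per Ensembl gene from FeatureCounts, 1 column per aorta, with 0 columns that matched no sample. The strand setting and the treatment of reads with several matches are not given in the sources used here, and the labels and the methods name different RNA and library kits. The authors also deposited mean FPKM per group, which hold no spread. Groups and replicate numbers came from the sample titles. No source says that libraries were technical repeats, and among 36 pairs within groups the lowest chi-square per degree of freedom was 44.5, so none was the same library deposited again.

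Counts were scaled by TMM and tested with edgeR 4.0.16 (R 4.3.3) by the quasi-likelihood test after filterByExpr, which kept 15811 of 54532 genes and 6 of the 10 followed here and p-values were adjusted by Benjamini and Hochberg's method across those genes. CPM values are relative to the TMM-scaled total, and log2 CPM has a prior count of 2. Single genes were also compared by the two-sided exact permutation test over all 1716 assignments of aortas. Alternatives were DESeq2 1.42.0, limma-voom (limma 3.58.1), other scalings, no filter, a replicate block and aortas left out. The test was tried on data drawn with known fold changes, as a check of the code. Its outcome is not given here and does not show the power for the differences reported.

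The genes and the 19 marker lists were chosen with earlier results of these data known. The text names the 10 genes, up to 4 genes of a list with the highest mean CPM, list genes at 0, the 8 genes most like Tcf7, Cd3e and Rag1, and the genes high in 1 aorta, and says where a gene was chosen after its values were seen. Promoters were read from RefSeq for GRCm38.p6. A few genes that this rule would name are not reported here.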

Additional observations from a re-analysis of the deposited data

Results flagged for a closer look

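Within a group of 6 or 7 aortas, the highest or lowest value was set apart when its gap to the next value was large against the range of the group (Dixon's test at 95%). Of 58 groups of values, 12 values stood apart. Chance sets apart about 1 in 20 groups of independent values, but these genes and lists vary together and were chosen because Tcf7 was high in Ad-sham4 and Ad-FAM3A6, so the number cannot be read against chance and the values are a description. The log2 CPM of Cd3e in Ad-sham4 was 3.19, with the other Ad-sham aortas between -0.17 and 0.50. For Cd8b1 it was 4.88 in Ad-sham4, against 0.26 to 1.80. Rag2 was at 1.99 in Ad-sham4 and Ptcra at -0.53, against highest values of -1.67 and -2.42 in the other Ad-sham aortas.

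In Ad-FAM3A, Rag1 stood apart in Ad-FAM3A3, at a log2 CPM of 0.35 from 17 counts, and Ptcra in Ad-FAM3A4, at -1.18 from 5 counts with the other 6 aortas of the group at 0 counts. Of the summed lists in log2 CPM, that of the T-cell receptor complex stood apart in Ad-sham4 at 8.5, and that of the T-lineage transcription factors in Ad-sham4 at 9.09 and in Ad-FAM3A6 at 9.93. In Ad-FAM3A6 the lists of naive and recirculating T cells at 9.77, of activated, effector and regulatory T cells at 8.91 and of cell division at 9.16 stood apart as well. Tcf7 in Ad-sham4 and in Ad-FAM3A6 was not among these values, as Ad-sham6 and Ad-FAM3A7 shortened the gap.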

How the results depend on the processing

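The call of 0 of the genes followed here held under all 22 alternatives. Of 204 alternative values of single genes, 186 kept their direction and their side of the threshold and 18 changed direction. Over all genes, 0 were called under every alternative but the DESeq2 test, which called 10. The number of genes with an unadjusted p under 0.05 was 934 in the edgeR test, 1501 by DESeq2, 2269 with no filter on low counts, 620 under the replicate block, and 491 (without Ad-sham3) to 1345 with 1 aorta left out. Of the 10 genes followed here, 0 were at that level in the edgeR test, 3 with no filter (Rag1, Rag2 and Dntt, at an edgeR adjusted p of 0.576), 0 to 5 with 1 aorta left out (5 without Ad-sham4 and 1, Tcf7, without Ad-FAM3A6), 1 without both (Cd3e) and 1 (Tcf7) without Ad-FAM3A6 and Ad-FAM3A7, a setting chosen after seeing the data.

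The direction of the log2 fold change turned as follows. By DESeq2, Cd3e was at -0.20, Cd8a at -1.10, Themis at -1.30 and Tcf7 at -2.0; by limma-voom Tcf7 was at -0.31 and under the replicate block at -0.49. Without Ad-sham4, Cd3e was at 2.75, Cd8a at 2.48, Cd8b1 at 2.59, Tcf7 at 2.21 and Themis at 3.34, the highest values with 1 aorta left out. Without Ad-FAM3A6, Cd3e was at -0.17, Cd8a at -1.08, Cd8b1 at -0.86, Tcf7 at -2.05 and Themis at -1.26, and without Ad-sham4 and Ad-FAM3A6 Tcf7 was at -0.16. Without Ad-FAM3A6 and Ad-FAM3A7, Cd3e was at -0.66, Cd4 at -0.13, Cd8a at -1.66, Cd8b1 at -1.42, Tcf7 at -2.88 and Themis at -2.16. The cause of the differences between tools was not tested. Same-numbered aortas of the groups correlated between -0.33 and 0.45, and 1 of 6 resembled its own number most, so the numbers did not pair the aortas. The level of Tcf7 moved little with scaling, from 99.9 to 101 CPM in Ad-sham4 at 3 scalings and 98.4 CPM by library totals, and from 153 to 171 CPM in Ad-FAM3A6. With 3 counts as the floor, Ptcra and, outside Ad-sham4, Rag2 lie at the limit of these depths.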
